A study of Mus musculus with 6 samples.

Results

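This account covers 10 genes that handle the amino acid serine. Linked to its entry into membrane lipids are the serine incorporators Serinc1, Serinc2, Serinc3 and Serinc5 and the serine palmitoyltransferase subunits Sptlc1 and Sptlc2. So are the phosphatidylserine synthases Ptdss1 and Ptdss2. The serine hydroxymethyltransferases Shmt1 and Shmt2 instead turn serine into glycine. All 10 genes were found by platform gene symbol among the 19321 genes named on the array, and each had exactly 1 probe. The family was chosen by the measured difference of Serinc5 between Cre and control arrays, which stood second among the 20745 probes tested when these were ordered by unadjusted p. Its difference is therefore given below as a description, without a test, and supports nothing further. The other 9 genes were added by name and function.

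The cells were astrocytes of strain C57BL/6J, grown from the cortex of newborn (P0) mice whose Chd7 alleles were both floxed (Chd7flox/flox). On 3 arrays the culture had received a control lentivirus and on 3 arrays a Cre lentivirus, which deletes the floxed part of Chd7, the gene of a chromatin remodeller. Cre was present only where Chd7 was deleted, so effects of the recombinase and of the lost gene cannot be told apart. All cultures were kept in 10% FBS with FGF2, EGF and B-27, and RNA was taken 3 days after infection. The labels do not name the promoter that drives Cre or the content of the control virus, nor do they say whether replicates came from separate animals or cultures, so the spread between arrays may be technical.

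Serine enters both sphingolipids and glycerophospholipids of cell membranes. Serine palmitoyltransferase joins serine to a fatty acid in the first step of sphingolipid synthesis, phosphatidylserine synthases exchange the head group of an existing phospholipid for serine, and serine hydroxymethyltransferases turn serine into glycine while passing a carbon unit to folate. SERINC proteins are multi-pass membrane proteins, first described as aids to serine incorporation into phosphatidylserine and sphingolipids and now also known as lipid scramblases and, for SERINC3 and SERINC5, as factors that lower the infectivity of retroviral particles. In the brain, astrocytes make and release serine, and Serinc5 is known for its expression in myelinating oligodendrocytes.

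The arrays measured 1 colour, and the values are given on both of the scales the files allow. The authors' processed intensity is linear, scaled so that the median of the values present on every array is 25. Empty were 1609 to 2176 probes on control arrays and 2271 to 3178 on Cre arrays. The log2 intensity was computed here from the scanner signal after correction against blank spots, with an offset of 50 units that shrinks differences of dim probes, and quantile normalisation. In the authors' values many more probes were lower than higher in Cre cultures without overlap, 12% against 0.689%. On the quantile normalised log2 scale these shares were 5.27% lower and 5.23% higher. All 10 probes were above background on all 6 arrays. As a check of the labels, the brighter Chd7 probe read 42 to 89 authors' units on control arrays and 7 to 8 on Cre arrays, and its log2 intensity differed by -1.13 (SE 0.16, n = 3 per group; limma adjusted p = 0.399 over all probes). The sources used here do not give the position of this probe relative to the floxed part.

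On the log2 scale the groups overlapped for each of the 9 genes added by name and function. They did not overlap for Serinc5, which was chosen for its difference, so nothing is read from that. Among all probes on this scale, 5.27% were lower and 5.23% higher in Cre cultures without overlap. Counting all 10 probes, the chosen Serinc5 among them, 6 were lower and 4 higher in Cre than in control cultures. The authors' values gave 9 lower and 1 higher (8 and 2 relative to the array's median), median scaling 8 and 2, and leaving out control replicate 1 or control replicate 2 gave 4 lower and 6 higher. The median difference of the 10 genes on the log2 scale was -0.03, against -0.00057 over all 20745 probes, of which 50.3% were lower, and it was 0.03 without control replicate 1 and 0.03 without control replicate 2. The median absolute difference was 0.06 for the 10 genes and 0.05 for all probes. After Benjamini-Hochberg adjustment in limma, 0 of the 10 probes passed 0.05, and 0% of all probes did (smallest adjusted p = 0.399). Besides Serinc5, 0 of the other 9 genes had an unadjusted p under 0.05, against 5.59% of all probes (1159; 2.83% lower and 2.75% higher, and 1934 in all with the replicate number as a block).

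**Figure D1:**
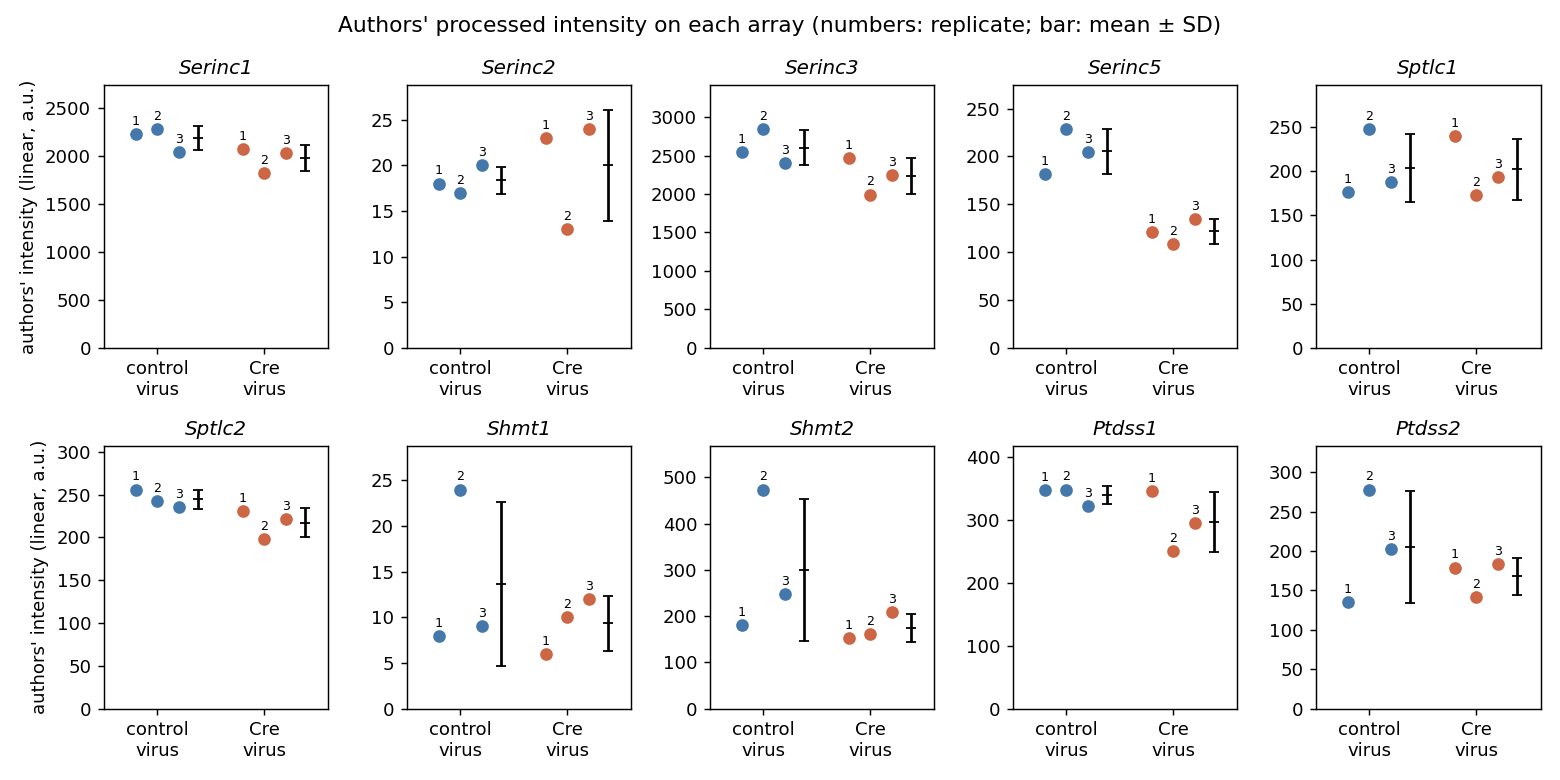
Authors' processed intensity (linear, arbitrary units, axis from 0) of each of the 10 genes on the 3 control virus arrays and the 3 Cre virus arrays, numbered by replicate, with the group mean and SD as a black bar. Serinc5 reads 182 to 229 on control and 109 to 135 on Cre arrays. Control replicate 2 is the highest array for every gene but Serinc2 and Sptlc2, by a wide margin for Shmt1, Shmt2 and Ptdss2.

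Serinc5 was lower on every Cre array. Its authors' intensity was 182, 229 and 205 on control replicates 1, 2 and 3 and 121, 109 and 135 on Cre replicates 1, 2 and 3. The lowest control array thus stayed above the highest Cre array. The group means were 205 ± 23.5 and 122 ± 13 (SD, n = 3 each), which puts Cre cultures at 59.3% of control, a 1.69-fold difference. Taken by replicate number, the Cre array held 66.5%, 47.6% and 65.9% of its control. Replicate 2 gave the lowest percentage for each of the other 9 genes too, from 34% to 81.8%. On the log2 scale the Serinc5 differences by replicate number were -0.51, -0.53 and -0.43. On the log2 scale the values were 8.52, 8.58 and 8.55 in control and 8.01, 8.05 and 8.13 in Cre cultures, which places the 6 arrays in 2 tight groups. The difference was -0.49 (SE 0.04), or 1.4-fold on the offset scale.

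In absolute size the Serinc5 difference was at percentile 99.5 of all probes, with 113 at least as large, and its pooled within-group SD of 0.05 log2 units was at percentile 27.9. With 1 array left out the difference lay between -0.52 and -0.46. Its size moved with the background correction, from -0.71 in the authors' values (-0.61 relative to the median of all probes there) to -0.19 with the scanner's local background column. Because the RNA comes from whole cultures, fewer cells that express a gene and less RNA per cell cannot be told apart.

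The start region of Serinc5 is shown because it belongs to the 1 gene of the 10 whose groups separated on the log2 scale, and that of Shmt2 because its difference, close in size, rested on 1 array. Both are RefSeq windows of 300 bases on GRCm38.p6, from 250 bases before the annotated start to 50 after, written 5′ to 3′ on the strand of the gene. The Serinc5 window is chr13:92610888-92611187, plus strand, and the Shmt2 window is chr10:127522395-127522694, minus strand. Capitals mark matches on either strand to the GC box GGGCGG (Serinc5) and to the NRF1 motif, whose 10 bases are the capitals of the Shmt2 line; both motifs were chosen after reading the sequences.
Serinc5: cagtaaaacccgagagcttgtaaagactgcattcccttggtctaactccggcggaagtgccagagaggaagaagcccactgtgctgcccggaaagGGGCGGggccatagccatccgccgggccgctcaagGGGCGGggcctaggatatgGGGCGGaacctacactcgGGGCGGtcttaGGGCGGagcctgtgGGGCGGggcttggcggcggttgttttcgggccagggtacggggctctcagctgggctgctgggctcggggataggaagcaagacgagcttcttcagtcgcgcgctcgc
Shmt2: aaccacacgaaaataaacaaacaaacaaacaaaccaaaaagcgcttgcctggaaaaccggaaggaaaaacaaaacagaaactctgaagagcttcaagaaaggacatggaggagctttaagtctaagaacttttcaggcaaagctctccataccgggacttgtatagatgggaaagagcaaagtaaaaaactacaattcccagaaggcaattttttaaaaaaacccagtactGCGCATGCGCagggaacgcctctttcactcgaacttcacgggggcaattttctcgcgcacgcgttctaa

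The Serinc5 window holds 6 matches to GGGCGG, and 1.35% of all 32851 promoter windows hold as many; at least 1 match occurs in 35.7% of windows. It is 65.3% G and C with 24 CpG dinucleotides, against medians of 52.7% and 7 over all windows. The Shmt2 window is 42.7% G and C with 13 CpG, and holds no GGGCGG and 1 NRF1 motif, which 0.971% of windows hold. Windows were found for 8 of the 10 genes (10 windows, 3 of them for Serinc2), and 7 of the 10 windows have a GC box. Serinc1 and Ptdss1 had no entry. The C/EBP-ATF response element TGATGNAA and the E-box CACGTG, searched on both strands, were in none of the 10 windows, and in 3.97% and 7.15% of all windows. A match describes letters and is not shown to be a site.

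The groups overlapped for each of the other serine incorporators. Serinc1, one of the broadly expressed members, read 2229, 2281 and 2039 authors' units on control and 2073, 1825 and 2029 on Cre arrays, with overlap. Its log2 difference was 0.02 (SE 0.10, 95% interval -0.23 to 0.26; limma adjusted p = 0.999). Serinc3, the relative of Serinc5 with antiretroviral activity, read 2549, 2849 and 2404 on control and 2467, 1994 and 2243 on Cre arrays. Cre replicate 1 lay inside the control range, and the log2 difference was -0.04 (SE 0.11, interval -0.30 to 0.23; limma adjusted p = 0.999). In the authors' values Serinc1 stood at 90.5% and Serinc3 at 85.9% of control. On a log2 scale with 10 units added, these differences were -0.05 and -0.12 relative to the median of all probes tested.

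Serinc2 was a dim probe. Its spots measured 82.5 to 115 scanner units, where blank spots averaged 62.4 to 70.8. It read 18, 17 and 20 authors' units in control and 23, 13 and 24 in Cre cultures, so the Cre arrays lay on both sides of the control arrays. The log2 difference was 0.08 (SE 0.09, interval -0.15 to 0.31; limma adjusted p = 0.999). Serinc4, the remaining family member and not among the 10 genes, read 5, 5 and 4 in control and 3, 2 and 5 in Cre cultures, with a log2 difference of -0.03 (SE 0.04). Whether Serinc5 differed more than its relatives was not tested, because Serinc5 was chosen for its difference.

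**Figure D2:**
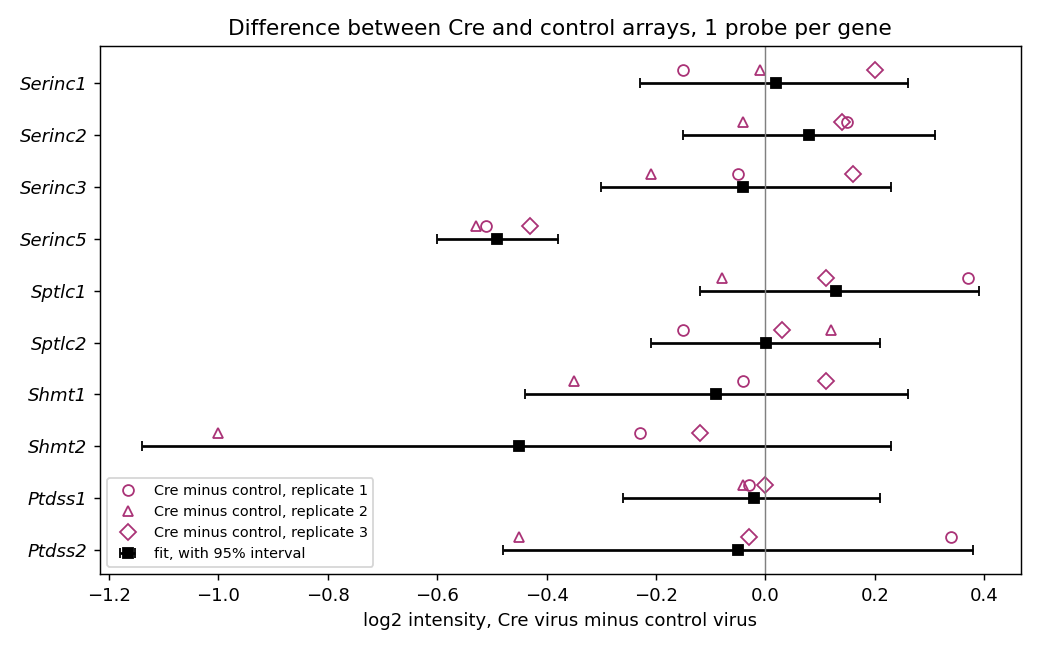
Log2 intensity of Cre minus control cultures for the 10 genes (black squares, limma estimate with 95% interval, which for Serinc5 is no test) and the same difference within each replicate number (open symbols). The 3 open symbols of Serinc5 lie between -0.53 and -0.43, while those of Shmt2 spread from -1.0 to -0.12 and those of Ptdss2 fall on both sides of 0.

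Serine palmitoyltransferase, the committed enzyme of sphingolipid synthesis, had overlapping groups on the log2 scale. Sptlc1 encodes the subunit shared by all forms of the enzyme. It read 176, 248 and 188 authors' units in control and 240, 173 and 193 in Cre cultures. The high arrays were control replicate 2 and Cre replicate 1, and the log2 difference was 0.13 (SE 0.10, interval -0.12 to 0.39; limma adjusted p = 0.999). Sptlc2, which encodes a catalytic subunit, read 256, 242 and 235 in control and 231, 198 and 222 in Cre cultures. In these authors' values its groups did not overlap, as was the case for 2 of the 10 genes (Serinc5 the other) and for 12% of all probes in that direction. On the log2 scale Sptlc2 was 8.95, 8.65 and 8.71 in control and 8.80, 8.77 and 8.75 in Cre cultures, with overlap and a difference of 0.0016 (SE 0.09, interval -0.21 to 0.21; limma adjusted p = 0.999). Relative to the median of all probes tested, the authors' values gave -0.07 for Sptlc2 on the log2 scale with 10 units added.

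The hydroxymethyltransferases were high on a single control array. Shmt2, the mitochondrial enzyme, read 181, 474 and 247 authors' units on control replicates 1, 2 and 3 and 152, 161 and 208 on Cre replicates 1, 2 and 3. Control replicate 2 stood far above the other 5 arrays, and Cre replicate 3 lay above control replicate 1. The log2 intensity averaged 8.94 ± 0.53 over control arrays and 8.48 ± 0.20 over Cre arrays (SD, n = 3). Cre arrays thus differed by -0.45 (SE 0.28, interval -1.14 to 0.23; limma adjusted p = 0.999). Its size is close to that of Serinc5, but its pooled SD of 0.40 is at percentile 98 of all probes. By replicate number the differences were -0.23, -1.0 and -0.12. Without control replicate 2 the difference was -0.16, and without control replicate 1 it was -0.67.

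Shmt1, the cytosolic enzyme, was dim, with spots of 77.4 to 110 scanner units. It read 8, 24 and 9 authors' units in control and 6, 10 and 12 in Cre cultures, so that control replicate 2 again stood out and the other arrays mixed. The log2 difference was -0.09 (SE 0.14, interval -0.44 to 0.26; limma adjusted p = 0.999), and it was 0.06 without control replicate 2.

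Both phosphatidylserine synthases had groups that overlapped. Ptdss1, which uses phosphatidylcholine as its substrate, read 348, 349 and 323 authors' units in control and 346, 251 and 295 in Cre cultures. Cre replicate 2 was its low array. The log2 difference was -0.02 (SE 0.09, interval -0.26 to 0.21; limma adjusted p = 0.999). Ptdss2, which uses phosphatidylethanolamine, read 135, 278 and 202 in control and 179, 141 and 183 in Cre cultures, with the lowest and the highest array both among the controls. Its log2 difference was -0.05 (SE 0.17, interval -0.48 to 0.38; limma adjusted p = 0.999), made up of 0.34, -0.45 and -0.03 by replicate number, and it was 0.11 without control replicate 2.

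Control replicate 2 was the highest array on the log2 scale for 5 of the 10 genes (Serinc3, Serinc5, Shmt1, Shmt2 and Ptdss2), against 22.6% of all genes. Of the other genes that supply or use serine, Sfxn1, a mitochondrial serine transporter, read 393, 973 and 468 authors' units in control and 371, 397 and 411 in Cre cultures, again with control replicate 2 far above the rest. Psat1, the aminotransferase of serine synthesis, was at 1075, 2162 and 1586 in control and 1037, 1430 and 1377 in Cre cultures, so that replicate 2 was the high array in both groups. On the log2 scale control replicate 2 was highest for 2 of 6 measured genes of serine synthesis and 2 of 11 of serine and glycine transport. For glycine cleavage and folate genes, Shmt1 and Shmt2 included, it was highest for 8 of 16. In the synthesis list, Sars (9.75) and Srr (9.20) had their lowest array there. Control replicate 2 had 90.7% of probes above background, against 83.6% to 88% on the other arrays. What else it differed in was not tested.

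**Figure D3:**
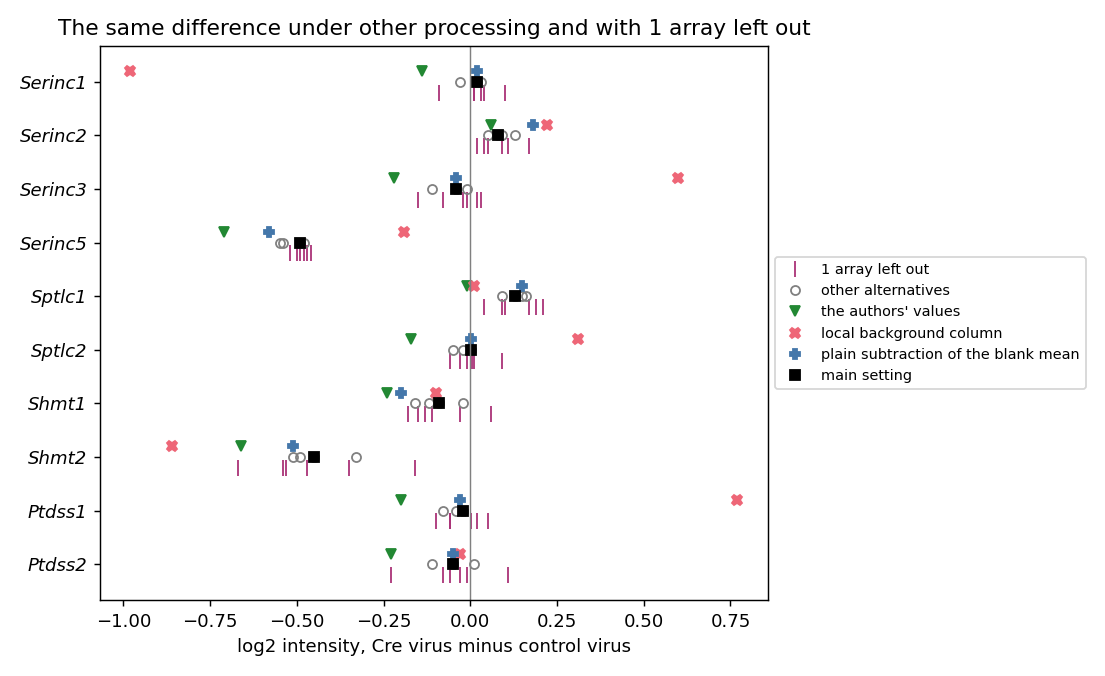
Log2 difference of Cre minus control cultures for the 10 genes in the main setting (black), with other background corrections or the authors' values (coloured symbols), other alternatives (open circles) and 1 array left out (ticks). Serinc5 and Shmt2 stay below 0 in all of them, Serinc5 between -0.71 and -0.19, and the local background column moves Serinc1 to -0.98 and Ptdss1 to 0.77.

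Around these 10 genes, 111 other measured genes of serine and lipid pathways were read from the same fit, from 12 lists. Of these, 59 were higher and 52 lower in Cre cultures. Their median was 0.012 on the log2 scale, against -0.00017 over the 17285 genes measured. None passed the adjusted threshold in limma. At an unadjusted p under 0.05 there were 5 higher and 4 lower, or 8.11%, against 5.82% of all genes, and 14 had groups that did not overlap, or 12.6% against 10.6%.

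In serine synthesis 4 of 6 measured genes were higher and 2 lower (median 0.03), against 1 of 6 higher in the authors' values and 2 of 6, with a median of -0.86, with the local background column. Psph, the phosphatase of the last step, read 703, 1211 and 1103 authors' units in control and 477, 652 and 700 in Cre cultures. The lowest control array and the highest Cre array were 703 and 700 in these values and overlapped on the log2 scale (10.32 and 10.37). The log2 difference was -0.52 (SE 0.22; limma adjusted p = 0.928). Psat1 stood at -0.12 (SE 0.26), Sars, the cytosolic seryl-tRNA synthetase, at 0.26 (SE 0.19) and Srr, the racemase that makes D-serine, at 0.08 (SE 0.09). In serine and glycine transport 3 of 11 were higher and 8 lower (median -0.02), against 0 of 11 higher in the authors' values (4 relative to the array's median) and 7 of 11 with the local background column. There, in the main setting, Sfxn1 stood at -0.34 (SE 0.29), Sfxn3 at -0.13 (SE 0.16), Slc1a4, a neutral amino acid carrier, at 0.10 (SE 0.12) and Slc38a4 at 0.03 (SE 0.09).

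Glycine cleavage and folate genes, the list that holds Shmt1 and Shmt2, spread the widest of the 12 (16 genes, 7 higher, 9 lower, from -0.45 to 0.72, with 2 higher in the authors' values). Aldh1l1, a cytosolic folate enzyme that is also an astrocyte marker, read 326, 414 and 494 authors' units in control and 662, 440 and 735 in Cre cultures. These authors' values overlap and the log2 values do not; the log2 difference was 0.72 (SE 0.17; limma adjusted p = 0.62). Mthfd2, the mitochondrial folate enzyme next to Shmt2 in its pathway, read 296, 428 and 356 in control and 161, 260 and 267 in Cre cultures, without overlap. Its log2 difference was -0.44 (SE 0.22; limma adjusted p = 0.956), and its isoenzyme gene Mthfd2l stood at -0.19 (SE 0.07) and the methionine synthase gene Mtr at 0.27 (SE 0.09). In transsulfuration (6 genes, 3 higher, 3 lower), which uses serine to make cysteine, the cystathionine lyase gene Cth read 176, 209 and 237 in control and 85, 128 and 122 in Cre cultures. No Cre array reached a control array, and the log2 difference was -0.61 (SE 0.18; limma adjusted p = 0.727). Cbs, the enzyme of the step before it, stood at 0.24 (SE 0.19), Gss at 0.07 (SE 0.05) and Mat2b at -0.13 (SE 0.10).

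Past the first step of sphingolipid synthesis the measured differences lay between -0.20 and 0.34. Among serine palmitoyltransferase subunits and regulators (7 genes, 6 higher, 1 lower, from -0.10 to 0.13), the small activating subunit Sptssa stood at -0.10 (SE 0.05), and Ormdl3, an inhibitor of the enzyme, at 0.06 (SE 0.10). With median scaling 3 of these 7 were higher and in the authors' values 0. In ceramide synthesis (8 genes, 4 higher, 4 lower), the ceramide synthase genes Cers4 and Cers6 stood at 0.17 (SE 0.06) and -0.16 (SE 0.09), and Kdsr, the reductase of the second step, at 0.29 (SE 0.16). Of the genes of complex sphingolipids, 12 of 14 were higher, with a median of 0.07. Set against the whole array, plain subtraction put this list's median at 0.11 and the authors' table at 0.1. The local background column gave 0.00036, with 7 of 14 genes above the array's median. The genes with the smallest p here included Sgms2, a sphingomyelin synthase, at 0.14 (SE 0.07), Gal3st1, a sulfatide enzyme close to background, at 0.14 (SE 0.07) and Ugt8a, which makes galactosylceramide, at -0.10 (SE 0.07). In sphingolipid breakdown (18 genes, 10 higher, 8 lower, with 4 higher in the authors' values), the largest difference was that of Psap, the precursor of the saposins, at 0.34, named after its value was seen. The sphingosine-1-phosphate phosphatase gene Sgpp1 stood at 0.23 (SE 0.06), the neutral ceramidase gene Asah2 at -0.20 (SE 0.06), Gm2a at 0.17 (SE 0.07) and Smpd2 at -0.12 (SE 0.07).

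Among phosphatidylserine genes, Pisd, the mitochondrial enzyme that turns phosphatidylserine into phosphatidylethanolamine, was at 8.55, 8.33 and 8.55 log2 units in control and 8.64, 8.62 and 8.91 in Cre cultures. The groups did not overlap on this scale, and the difference was 0.25 (SE 0.10, limma adjusted p = 0.926). In the authors' values they overlapped, with 186, 188 and 205 in control and 204, 177 and 251 in Cre cultures. Pemt stood at -0.10 (SE 0.07) on the log2 scale. In transfer and scrambling (14 genes, 6 higher, 8 lower; 2 higher in the authors' values, 9 higher if the local background column was used), Osbpl5, which carries phosphatidylserine from the endoplasmic reticulum to the plasma membrane, stood at 0.32 (SE 0.12), the scramblase Ano6 at 0.11 (SE 0.09), the flippase gene Atp11b at -0.16 (SE 0.06) and Plscr4 at -0.14 (SE 0.06). In phosphatidylcholine and phosphatidylethanolamine synthesis (12 genes, 5 higher, 7 lower, with 1 higher in the authors' values), Lpin1, a phosphatidate phosphatase, stood at 0.25 (SE 0.11), Pcyt2 at 0.06 (SE 0.05), Lpin2 at -0.09 (SE 0.04) and Chkb at -0.14 (SE 0.12).

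**Figure D4:**
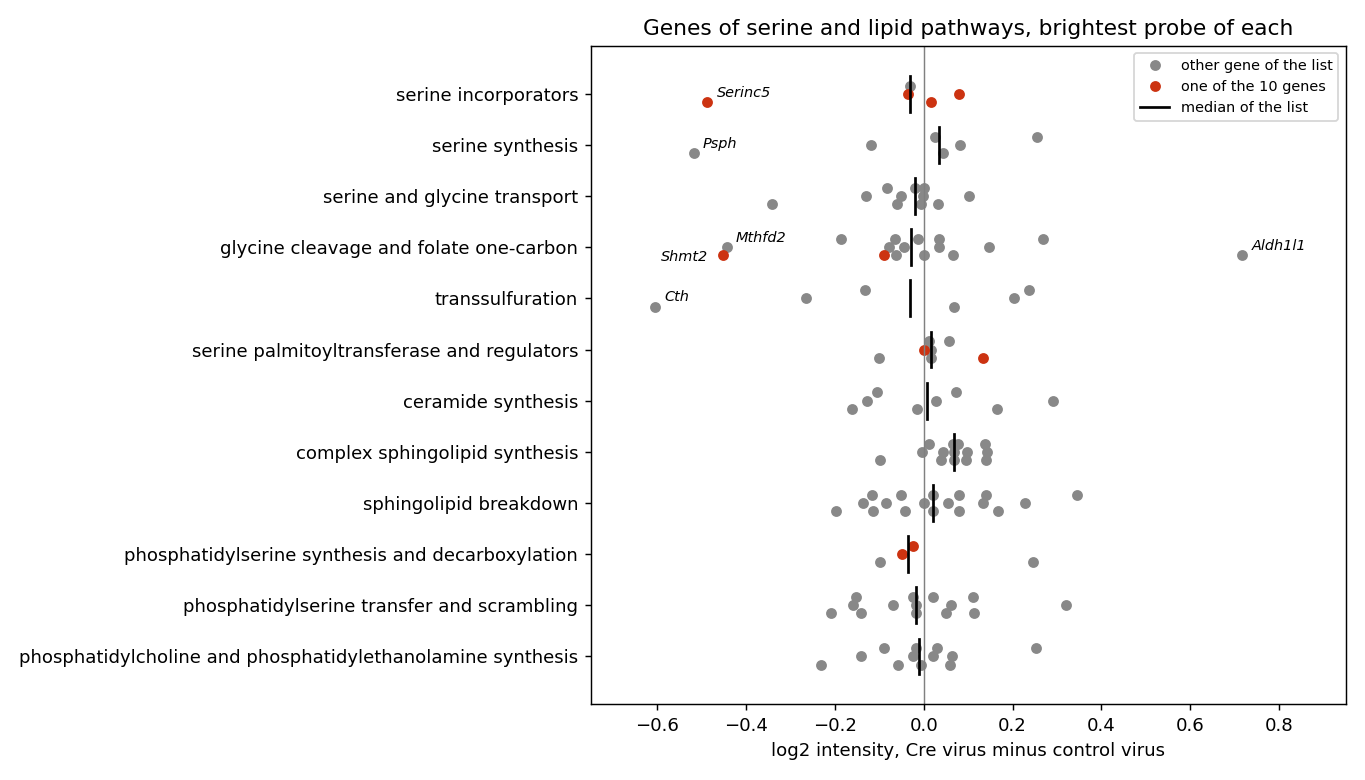
Log2 intensity of Cre minus control cultures for every measured gene of the 12 lists (grey), with the 10 genes in red and the median of each list as a black line; genes beyond 0.4 in either direction are named. The medians lie between -0.04 and 0.07, and Serinc5, Psph, Shmt2, Mthfd2 and Cth are the genes below -0.4.

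Markers of cell types were read as well. None of those measured passed the adjusted threshold in limma, nor did any other probe. At an unadjusted p under 0.05 in limma, 5 of 12 astrocyte markers were higher and 4 of 9 microglia and macrophage markers were lower. Of 10 neuron markers 2 were higher and 1 lower, and of oligodendrocyte and endothelial markers 0. The share over all genes was 5.82%. Groups did not overlap for 4 astrocyte, 4 microglia and 3 neuron markers, against 10.6% of all genes. All 12 astrocyte markers were above background on all 6 arrays, with summed authors' values of 5074 to 8901 in control and 6739 to 8549 in Cre cultures; 11 of 12 had a higher log2 intensity in Cre cultures, at a median of 0.24, and 8 of 12 were higher in the authors' values, at 0.07 (0.17 relative to the array). Of 10 microglia and macrophage markers, 8 were above background on all arrays. Their sum was 228 to 264 in control and 114 to 167 in Cre cultures, without overlap, and 7 of 9 measured were lower on the log2 scale, at a median of -0.17 (-0.04 relative to all probes with the local background column). None of them was empty on all arrays, and Cx3cr1, Itgam and Ptprc averaged under 10 authors' units. Oligodendrocyte lineage markers, of interest because Serinc5 is known from these cells, summed to 1825 to 3350 in control and 1690 to 2512 in Cre cultures, with overlap. Olig1 was the brightest of them, while Mobp, Pdgfra, Cldn11 and Gal3st1 averaged under 10 units. Of 8 fibroblast and mural markers, all were above background, led by Acta2, and their sums of 6279 to 10484 and 5728 to 9110 overlapped. On the log2 scale 6 of these 8 were lower and 2 higher, at a median of -0.14 (-0.04 relative to the array with the local background column). The 8 ranged from -0.42 (Col3a1) to 0.15 (Rgs5), and 0 of them had an unadjusted p under 0.05 in limma. Sums of neuron markers (475 to 647 and 417 to 526) and endothelial markers (58 to 175 and 52 to 118) overlapped as well. The part of these cell types in the Serinc5 difference was not tested.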

How the data were processed

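Total RNA of the 6 astrocyte samples was amplified, coupled to Cy5 and hybridised to 1-colour arrays, as the labels' protocols state. In the deposited scanner files a median intensity per spot and a local background intensity are given, joined over 3 scanner gains, per the file headers. The authors' deposited table holds a processed intensity per probe on a linear scale, with each column's median at 25. The sources used here give no other step.

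Scanner intensities were corrected with limma's nec (normexp) against the 2728 blank spots not marked by the scanner, with an offset of 50, log2 transformed and quantile normalised. Marked probe spots (0 to 9 per array) were left out. Of 23473 probes, 20745 exceeded the blank mean by 2 SD on at least 3 of 6 arrays and were tested together (limma 3.58.1 in R 4.3.3, lmFit and eBayes, two-sided, Benjamini-Hochberg, threshold 0.05, no block); the fit was checked on simulated data. Probes were named from the platform table (20690 with 1 gene symbol, 2783 unnamed here), and the 10 symbols match RefSeq's GRCm38.p6 table by Entrez identifier. The number of arrays limits the precision. Between any pair of arrays log2 intensities correlated at 0.987 to 0.996 across probes.

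The 10 genes and the lists were chosen with earlier results of these data known. The brightest probe stood for a list gene. Every probe of the 10 genes is given, and of each list up to 2 other genes per direction with the smallest p. Lists are described by counts and medians, without a set test. Same-numbered arrays deviated together from their group means (correlations 0.498, 0.425 and 0.436; other numbers -0.372 to -0.167), although the labels state no shared litter, culture or day. The SE, interval and p given with each result are from the fit without a block, and the block was an alternative. Promoter sequences came from RefSeq (GRCm38.p6). Alternatives covered the background, the offset, the normalisation, the filter, array weights, the replicate block and leaving out each array.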

Additional observations from a re-analysis of the deposited data

How the results depend on the processing

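Under 9 processing alternatives, 0 probes passed the adjusted threshold each time, over the whole array and among the 10 genes, and likewise with each array left out (smallest adjusted p 0.0675 to 0.998). The replicate block changed none of these calls (0 probes past the threshold, Serinc5 at -0.49, Shmt2 at -0.45), but moved the count of probes at an unadjusted p under 0.05 from 1159 to 1934; it was 617 with median scaling and 1959 with the authors' values. Of the 9 genes other than Serinc5, 1 was under that p with the local background column (Ptdss1), without control replicate 1 (Shmt2) and without Cre replicate 2 (Serinc2), and 0 otherwise; with Serinc5 counted, leaving out an array gave 1 to 2, from which nothing is read. The brighter Chd7 probe lay between -2.47 (plain subtraction) and -0.53 (local background column).

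Serinc5, Shmt2 and Serinc2 kept their sign under all 15 alternatives. Of the 150 values of the 10 genes, 21 changed sign, most of them near 0, and the cause was not tested. With the local background column these were Serinc1 (-0.98), Serinc3 (0.6) and Ptdss1 (0.77). The authors' values had a median of -0.1 over the array, and there they were Serinc1 (-0.14), Sptlc1 (-0.01) and Sptlc2 (-0.17), and the median of the 10 genes was -0.21 (-0.11 relative to all probes). With median scaling they were Serinc1 (-0.03) and Sptlc2 (-0.05), and with array weights Sptlc2 (-0.02) and Ptdss2 (0.01). With 1 array left out, the median of the 10 genes ranged from -0.07 to 0.03, above 0 without control replicate 1 or 2. The range was -0.09 to 0.1 for Serinc1, 0.02 to 0.17 for Serinc2, -0.15 to 0.03 for Serinc3, 0.04 to 0.21 for Sptlc1, -0.06 to 0.09 for Sptlc2, -0.18 to 0.06 for Shmt1, -0.1 to 0.05 for Ptdss1 and -0.23 to 0.11 for Ptdss2. Serinc2 and Shmt1 lie close enough to the blank spots that signal over background limits what can be seen of them.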
